A study of Mus musculus with 6 samples.

Results

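Zinc finger family genes were examined in small intestinal organoids with and without Smarcad1, a chromatin remodelling ATPase. A gene was a member if its symbol in the deposited table began with Zfp, Zkscan, Zscan, Zbtb or Znf, and 23 of the 1420 genes in the table met that rule. Of these members, 18 (78.3%) had higher values in the KO organoids and 5 (21.7%) had lower values. Over the whole table, 52.5% of genes were higher and 47.4% were lower. The 23 members lay on 15 chromosomes, and 5 of them formed 1 group of neighbours on chromosome 17.

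Poly(A) RNA was sequenced from 6 organoid cultures of C57BL/6 mice, 3 WT and 3 KO, each collected 5 days after the organoids were broken up and reseeded. About 600 organoids were used, a number that the labels give per condition. The WT cultures came from control littermates, and the KO cultures from mice with a floxed Smarcad1 allele deleted by Cre. The sources differ on the Cre: the genotype label names Vil-Cre, which acts in the intestinal epithelium, whereas the culture protocol names ZP3-cre, which acts in the oocyte and so removes the gene from all cells. All cultures grew in the same medium with EGF, Noggin and R-spondin-1, without immune cells or microbiota. The age of the animals, and which culture came from which animal, are not given in the sources used here, so the tests measure the spread between these cultures.

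C2H2 zinc finger proteins bind DNA through repeated fingers, each a loop held by a zinc ion between a pair of cysteines and a pair of histidines. The largest group in mammals also carries a KRAB domain, which recruits Trim28 and through it the H3K9 methyltransferase Setdb1, so that the bound site, often a transposable element, is silenced. Smarcad1 is known to bind Trim28. KRAB zinc finger genes arose by repeated duplication and often lie in clusters of close relatives. The SCAN domain (Zscan genes, and together with KRAB in Zkscan genes) and the BTB domain (Zbtb genes) are other domains that pair with fingers, and not every gene with a Zfp symbol encodes a repressor.

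The table holds only genes that the authors had selected with DESeq2 from the same 6 cultures. In limma on log2(RPM + 0.1), with p adjusted over the table, 52.5% of the 1420 genes were higher in KO at an adjusted p under 0.05 and 47.4% were lower. That the members passed the test is therefore fixed by how the table was made. Only their direction, size and pattern over libraries are described. Library depth, read from the smallest step in the values, ran from 12.4 to 15.7 M reads. Smarcad1 itself (chr6:65042583-65116061) measured 105, 94.7 and 96.3 RPM (reads per gene scaled to the size of the library) in WT but 21.7, 21.3 and 24.0 RPM in KO, a log2 change of -2.14 (SE 0.10, limma adjusted p = 5.6e-05).

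RNA of cell type markers differed between the genotypes too. Of 13 Paneth cell markers searched, 10 were in the table. All 10 rose, and their summed level was 9291 to 10717 RPM in WT and 19808 to 29118 RPM in KO. All 3 goblet cell markers in the table, of 8 searched, also rose. Of 11 enterocyte markers, 6 were in the table and 5 of those fell. The sum of the 6 went from 10508 to 12026 RPM in WT to 7023 to 7421 RPM in KO. The listed enteroendocrine markers Gcg and Sct (2 of 9 searched), the stem cell marker Rnf43 (1 of 7) and the general epithelial marker Krt18 (1 of 8) rose. The tuft cell marker Dclk1 (1 of 5) fell. Over the whole table, 52.5% of genes were higher and 47.4% were lower. Markers outside the table were not analysed here, so a single listed marker does not stand for its cell type. The 1 listed marker of non-epithelial cells (of 8 searched), Lyz2, was at 1.31 to 2.41 RPM in WT and 3.71 to 6.04 RPM in KO. The part of these shifts in the zinc finger values was not tested, and in bulk RNA fewer cells of a type and less RNA per cell cannot be told apart.

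The group on chromosome 17 held, in order, Zfp983 (chr17:21657582-21662540), Zfp760 (chr17:21707741-21725636), Zfp229 (chr17:21730795-21769342), Zfp943 (chr17:21962552-22071168) and Zfp758 (chr17:22361453-22377281), all on the plus strand of GRCm38. Promoters from RefSeq (GRCm38.p6, 300 bases around the start) are shown for 4 of them, because 2 are nearly identical and the other 2 belong to the members with the largest rise and the largest fall. Capitals mark the GC box GGGCGG, the E-box CACGTG and the CCAAT box, each searched on both strands.
Zfp943: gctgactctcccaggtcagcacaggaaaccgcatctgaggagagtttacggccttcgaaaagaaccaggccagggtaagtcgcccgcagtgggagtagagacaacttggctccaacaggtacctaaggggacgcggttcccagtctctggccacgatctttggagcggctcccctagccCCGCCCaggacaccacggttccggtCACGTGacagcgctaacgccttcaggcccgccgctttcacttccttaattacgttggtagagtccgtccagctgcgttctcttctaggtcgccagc
Zfp758: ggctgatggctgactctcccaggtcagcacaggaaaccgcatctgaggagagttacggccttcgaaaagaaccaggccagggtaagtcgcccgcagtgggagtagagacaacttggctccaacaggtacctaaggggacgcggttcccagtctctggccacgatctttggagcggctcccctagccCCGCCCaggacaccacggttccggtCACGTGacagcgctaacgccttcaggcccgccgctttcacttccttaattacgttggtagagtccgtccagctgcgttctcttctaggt
Zfp760: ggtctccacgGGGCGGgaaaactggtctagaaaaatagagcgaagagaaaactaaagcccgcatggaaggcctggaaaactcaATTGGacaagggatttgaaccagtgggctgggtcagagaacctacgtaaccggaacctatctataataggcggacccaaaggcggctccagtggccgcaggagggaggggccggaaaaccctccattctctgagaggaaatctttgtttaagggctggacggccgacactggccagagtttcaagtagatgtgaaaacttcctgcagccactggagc
Zfp983: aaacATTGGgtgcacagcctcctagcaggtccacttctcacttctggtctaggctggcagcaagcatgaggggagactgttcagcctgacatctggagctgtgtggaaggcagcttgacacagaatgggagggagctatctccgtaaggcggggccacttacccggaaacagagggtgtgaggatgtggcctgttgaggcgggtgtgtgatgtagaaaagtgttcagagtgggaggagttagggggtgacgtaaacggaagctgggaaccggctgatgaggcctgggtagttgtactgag

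The promoters of Zfp943 (chr17:21962309-21962608) and Zfp758 (chr17:22361213-22361512) shared 292 of 300 bases in a global alignment (97.3%), although the starts of the genes lie 399 kb apart. Among the other pairs of promoters in the group, identity in the same alignment was 46.7% to 54.7%. Each of the near-identical promoters held 1 GC box and 1 E-box, with 21 CpG dinucleotides in Zfp943 and 20 in Zfp758. Both windows also hold the start of another zinc finger gene on the minus strand, Zfp942 at 88 bases from the start of Zfp943 and Zfp944 at 53 bases from that of Zfp758, neither of which was analysed here. The promoter of Zfp760 (chr17:21707491-21707790) had 12 CpG, 1 GC box and 1 CCAAT box, and that of Zfp983 (chr17:21650361-21650660) had 7 CpG and 1 CCAAT box. The region counted for Zfp983 begins downstream of that promoter and covers part of the annotated gene (21650624 to 21664966).

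Promoters were found for 20 of the 23 members. A CCAAT box occurred in 12 of the 20 (60.0%) and in 37.4% of all 32851 promoters of that length. A GC box was present in 11 (55.0%), against 35.7% of all. The E-box of Zfp943 and Zfp758 occurred in no other member promoter and in 7.15% of all. No TATAAA was found, a motif that 13.6% of all promoters held. The median CpG number was 13 in the members and 7 in all promoters, and within the family it was 9 for the 12 promoters of KRAB genes and 21.5 for the other 8. These matches are descriptions of the letters in the window.

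Within the chromosome 17 group, 4 genes were higher in KO and 1 was lower. Zfp760, a KRAB gene with 17 fingers, stood at 9.56, 8.81 and 6.98 RPM in WT and 20.9, 21.3 and 32.2 RPM in KO. Every KO value exceeded every WT value, and the mean was 2.93 times higher, the largest rise in the family (log2 change 1.52, SE 0.21, limma adjusted p = 0.0019). Its neighbour Zfp229, also a KRAB gene, had 2.56, 2.24 and 1.83 RPM in WT and 3.22, 6.04 and 7.29 RPM in KO, with a log2 change of 1.22 (SE 0.30, limma adjusted p = 0.00997). These are low levels: the 6 Zfp229 values correspond to 33, 35 and 28 reads in WT and 40, 88 and 104 reads in KO, and the lowest KO library lies close to the WT libraries.

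The genes with near-identical promoters had smaller log2 changes. Zfp943 was measured at 27.8, 21.2 and 22.1 RPM in WT and at 35.6, 37.7 and 45.1 RPM in KO (log2 change 0.74, SE 0.15, limma adjusted p = 0.0058). Zfp758 gave 15.0, 12.8 and 15.5 RPM in WT and 19.4, 19.8 and 26.1 RPM in KO (log2 change 0.58, SE 0.15, limma adjusted p = 0.0117). Neither gene had overlapping groups, and the 95% intervals of their changes, 0.37 to 1.10 and 0.21 to 0.95, overlapped. Of the transcript 50-mers of Zfp758, 2.14% also occur in Zfp943. With the exon-length trend removed, the log2 change of Zfp758 was 0.31 (limma adjusted p = 0.103).

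Zfp983, at the upstream end of the group, went the other way. Its values were 5.60, 4.02 and 6.53 RPM in WT and 2.66, 1.78 and 1.75 RPM in KO, without overlap. The KO mean was 38.4% of the WT mean (log2 change -1.34, SE 0.23, limma adjusted p = 0.0035), on 63 to 100 reads per WT library and 25 to 33 per KO library. It was the only one of the 13 KRAB members that fell. The start of its counted region, which lies downstream of the annotated start, is 50.2 kb from that of Zfp760, which had the largest rise.

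The annotation (GENCODE M21) places 13 protein-coding genes in this 720 kb interval, 11 of them with a family name and 12 with a KRAB pattern, and 5 of the 13 are in the table. Over the genome the table holds 23 of 469 annotated coding genes with a family name (4.90%) and 6.07% of all coding genes. The other annotated genes were not analysed here. With a gap of 2 Mb instead of 1 Mb, Zfp213 and Zfp598 joined the group, which then held 7 members, 5 higher and 2 lower. Among the 13 listed genes of other kinds between Zfp983 and Zfp598, 10 were higher and 3 were lower. Those include Atp6v0c, a subunit of the proton pump of lysosomes (log2 change 1.66), and Prss41, a serine protease (log2 change -2.35). On other chromosomes, 13 of the 16 members were higher, where 52.5% of all listed genes were.

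**Figure D1:**
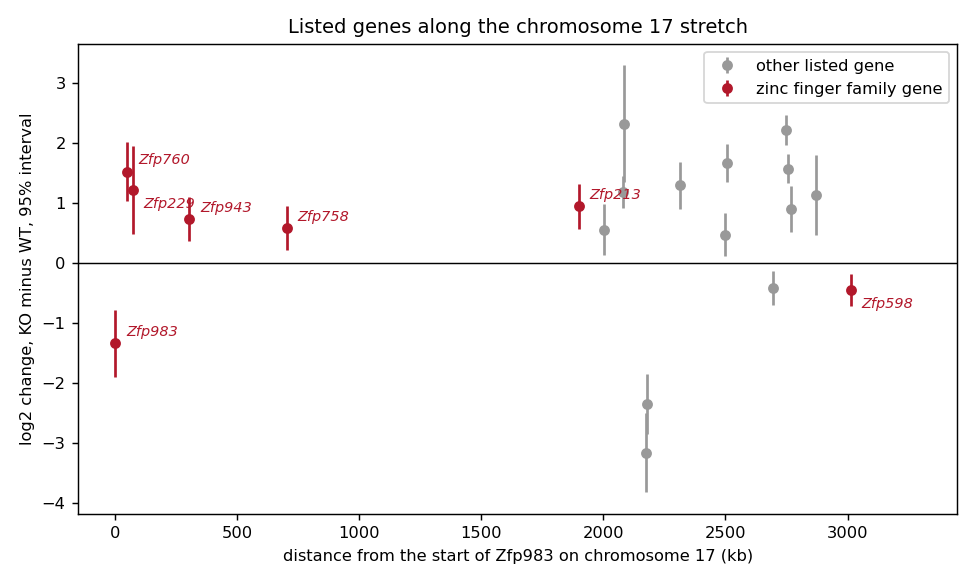
Log2 change (KO minus WT, with 95% interval) of each listed gene, for zinc finger family genes (red) and other listed genes (grey). The horizontal axis is the distance in kb of the start of the counted region from that of Zfp983. Of the 7 family genes, 5 lie above 0, and Zfp983 and Zfp598 lie below it at the ends of the stretch.

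A KRAB domain was searched in each annotated protein as a short amino acid pattern together with at least 1 finger, a pattern that was adjusted after the members' proteins had been looked at. It was found in 13 members, of which 12 were higher and 1 lower in KO, with a median log2 change of 0.74. The pattern was not found in Zkscan7, although its name stands for KRAB and SCAN domains, so the gene is counted among the others. Among the 10 members without the pattern, 6 were higher and 4 were lower, with a median of 0.46. Over all 1420 genes, 52.5% were higher and the median was 0.38. That median turned to -0.05 with the exon-length trend removed and to -0.35 among genes left by a filter on low levels. In the same fits the median of all members was 0.56 and 0.43. Of the calls left by that filter, 44.6% were higher, against 52.6% before it. Listed genes of low level therefore rose more often than the rest. The filter removed 10 members, of which 9 were higher. The share of rises among listed genes at the level of the KRAB members was not worked out. All 8 KRAB members outside chromosome 17 were higher. KRAB members had 7 to 17 fingers (median 11) and the others 1 to 13 (median 5.5). No test of this split was made, since the members and the pattern were chosen with results known.

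**Figure D2:**
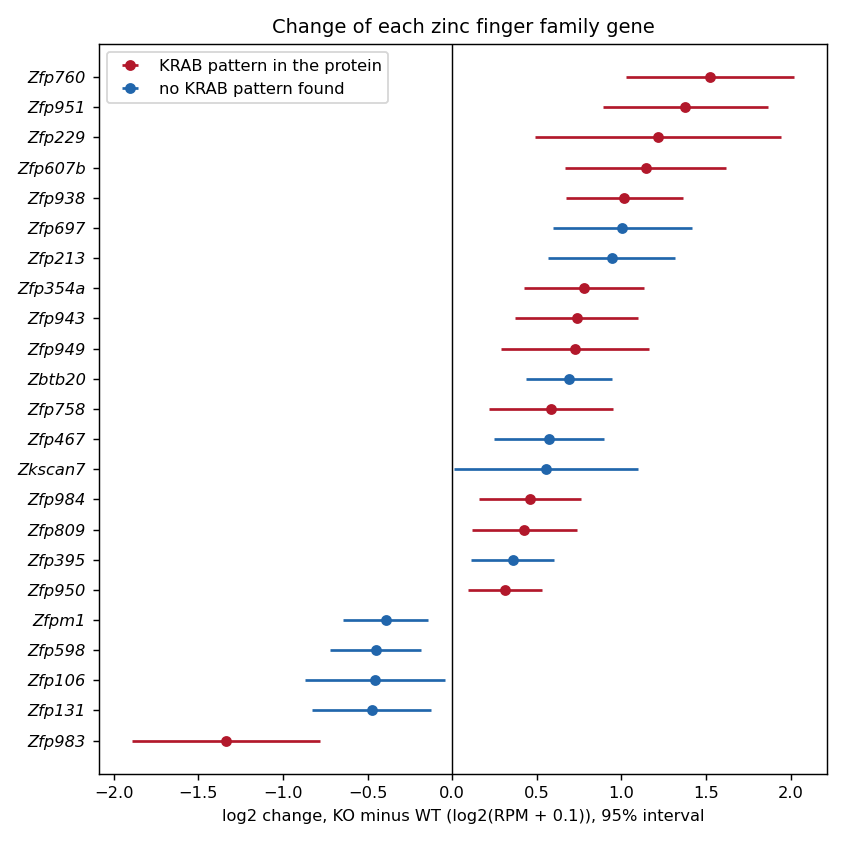
Log2 change (KO minus WT) of the 23 zinc finger family genes with 95% intervals, in order of size, coloured by whether the KRAB pattern was found in the protein. Of the KRAB genes, 12 lie above 0 and Zfp983 lies below it at -1.34.

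Outside chromosome 17 the largest rises among KRAB members of the family were those of Zfp951, Zfp607b, Zfp938 and Zfp354a. Zfp951 (chr5:104813169-104860070) had 3.89, 4.66 and 3.65 RPM in WT and 8.61, 14.2 and 9.95 RPM in KO, a log2 change of 1.38 (SE 0.20, limma adjusted p = 0.0024). Zfp607b (chr7:27689340-27706484) was at 3.03, 2.04 and 2.41 RPM in WT and at 4.67, 6.93 and 5.33 RPM in KO, a log2 change of 1.14 (SE 0.20, limma adjusted p = 0.0036). Both sets of KO values lay wholly above WT. Zfp938 (chr10:82224850-82241280) went from 7.77, 9.77 and 10.1 RPM to 21.2, 17.7 and 17.3 RPM, 2.03 times the WT mean (log2 change 1.02, SE 0.15, limma adjusted p = 0.0021), and its log2 change was 0.56 with the exon-length trend removed (limma adjusted p = 0.0069). Zfp354a (chr11:51059257-51072799), first known from kidney, gave 6.37, 4.85 and 5.61 RPM in WT and 10.1, 10.7 and 8.34 RPM in KO (log2 change 0.78, SE 0.15, limma adjusted p = 0.0047). In Zfp607b 10.9% and in Zfp354a 11.8% of the 50-mers also occur in other genes, for Zfp354a in its paralog Zfp354b, beside 0.094% in Zfp938, and reads that map to several places were not counted.

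The remaining KRAB members rose by less, and are named although their values were seen first. Zfp949 stood at 11.0, 16.7 and 10.7 RPM in WT and at 20.5, 20.9 and 20.8 RPM in KO, the tightest KO group of the family (coefficient of variation 0.999%). Zfp984 had 31.0, 27.0 and 30.1 RPM in WT and 37.9, 46.4 and 37.3 RPM in KO. Its log2 change was 0.46 (SE 0.13), and 54.5% of its 50-mers occur in other genes, 46.9% in Gm13212. Only uniquely mapped reads were counted, and how many reads of Zfp984 this removed was not tested. With the exon-length trend removed its log2 change was 0.18 (limma adjusted p = 0.169).

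Zfp809 is a KRAB protein known for silencing retroviruses in embryonic cells by binding their primer binding site and recruiting Trim28. In these organoids it was at 44.6, 45.0 and 43.7 RPM in WT and at 51.0, 61.3 and 68.2 RPM in KO. All KO values were above the WT values, whose coefficient of variation was 1.43%. The log2 change was 0.43 (SE 0.13, limma adjusted p = 0.0173), but it was 0.16 with the exon-length trend removed (limma adjusted p = 0.293). With WT library 1 or 3 or KO library 2 left out, the limma adjusted p of Zfp809 was 0.050 to 0.057 and the call was lost. Zfp950 had the smallest rise in the family, from 101, 102 and 97.0 RPM to 123, 119 and 129 RPM (log2 change 0.31, SE 0.09). Its call was lost without WT library 1 or 3 (limma adjusted p = 0.054 and 0.053). The gene overlaps Grk5 on the other strand, and whether the counting used strand is not stated.

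A further 6 genes in the table without a family name carried the KRAB pattern, and all 6 were higher in KO. Their log2 changes ran from 0.55 in 2610044O15Rik8 to 2.15 in 5730507C01Rik, which rests on 4, 12 and 10 reads in WT and 22, 52 and 47 in KO, with 23.2% of its 50-mers in other genes. Gm13212, the relative of Zfp984, was at 3.65, 4.53 and 3.46 RPM in WT and 10.1, 8.85 and 12.3 RPM in KO, a log2 change of 1.40 (SE 0.17). With these genes, 18 of the 19 listed KRAB genes were higher, and the median log2 change over the 19 was 0.78. Over all 1420 listed genes, 52.5% were higher and the median log2 change was 0.38. The 6 genes without a family name were found after the values were seen, and 56.8% of the 50-mers of Gm13212 occur in other genes.

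Members without the KRAB pattern that rose were of several kinds. Zfp697 (chr3:98382461-98753812) had 3.03, 4.60 and 3.39 RPM in WT and 7.25, 6.79 and 8.13 RPM in KO, without overlap (log2 change 1.01, SE 0.17, limma adjusted p = 0.0034). Its deposited region spans a run of Hsd3b steroid dehydrogenase genes on the other strand. Of its 50-mers, 12.9% occur in other genes, with 9.27% in Gja5, which does not overlap it, and 2.35% in the overlapping Hsd3b3. Zfp213 (chr17:23556769-23564226), with a SCAN pattern, went from 11.0, 13.7 and 15.5 RPM to 24.8, 23.6 and 28.5 RPM (log2 change 0.94, SE 0.16, limma adjusted p = 0.0031). With the exon-length trend removed the log2 change of Zfp213 was 0.62 (limma adjusted p = 0.0118). It shares 52.3% of its 50-mers with other genes, 43.9% with Gm26695, which overlaps it on the opposite strand.

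Zbtb20, a BTB zinc finger repressor, was at 34.3, 32.8 and 29.4 RPM in WT and 54.8, 50.7 and 49.9 RPM in KO, with little spread in either group (log2 change 0.69, SE 0.11, limma adjusted p = 0.0026). Zfp467, known from the choice between bone and fat cell fates, gave 15.7, 18.6 and 20.7 RPM in WT and 29.5, 25.1 and 27.1 RPM in KO (log2 change 0.57, SE 0.14). Zfp395, in which 1 finger was found, was at 110, 123 and 106 RPM in WT and 142, 142 and 150 RPM in KO (log2 change 0.36, SE 0.10), and the call was lost without WT library 1 or 3 (limma adjusted p = 0.056 and 0.052). The groups of all 3 genes were separate.

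Zkscan7, the other SCAN gene, was the only member whose groups overlapped. It had 32.8, 28.1 and 26.9 RPM in WT and 30.6, 46.1 and 55.8 RPM in KO, so 1 KO library lay among the WT libraries. Its log2 change was 0.55 (SE 0.23, limma adjusted p = 0.0472), and the call was lost with any of the WT libraries or with KO library 2 or 3 left out (limma adjusted p from 0.059 to 0.127), and its log2 change was 0.36 without KO library 3. Centring the libraries on their medians also ended the call (limma adjusted p = 0.067), as did a block for replicate number (limma adjusted p = 0.081). Of its 50-mers, 13.2% occur in other genes, nearly all in A530083I20Rik, which overlaps it on the other strand. In all, 17 members had every KO value above every WT value, as had 51.3% of the 1420 genes, and 5 members had every KO value below, as had 47.2%. For a single gene the exact permutation test, two-sided, cannot go below p = 0.1 with 3 libraries against 3.

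**Figure D3:**
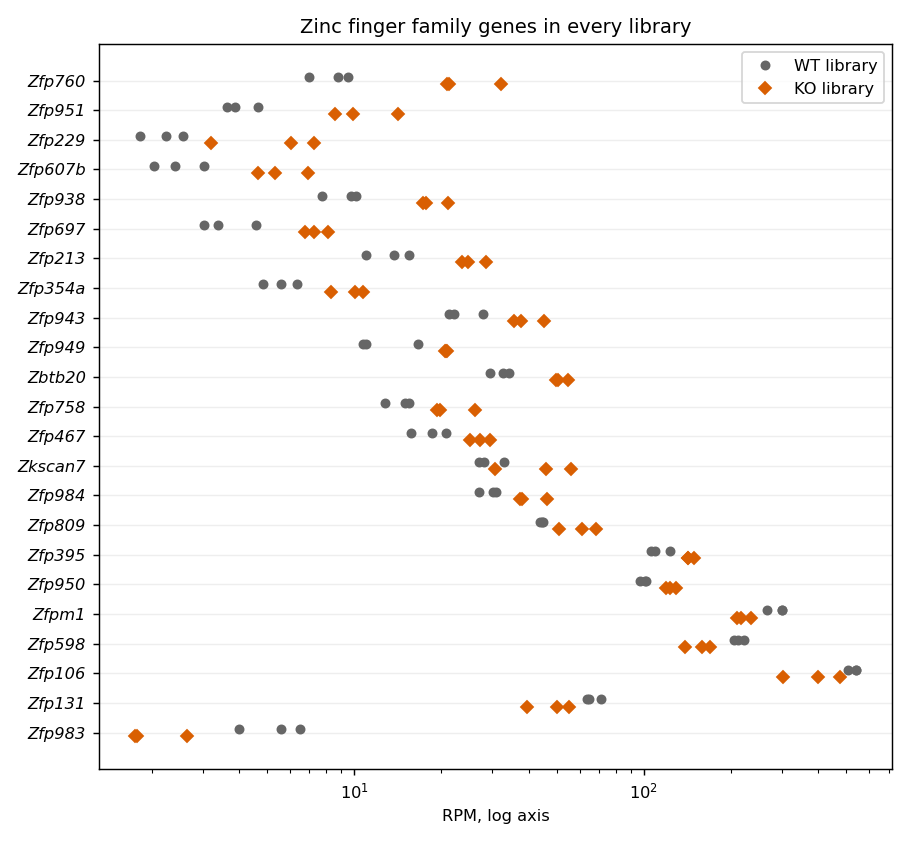
RPM (log axis) of the 23 zinc finger family genes in each of the 3 WT (circles) and 3 KO (diamonds) libraries, in order of log2 change. The groups are separate in 22 genes and overlap in Zkscan7.

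The 4 members that fell besides Zfp983 had no KRAB pattern and are known for other work. Zfpm1 (chr8:122282141-122337251), also called FOG1, is a cofactor of GATA factors. It was at 300.2, 299 and 267 RPM in WT and 209, 234 and 216 RPM in KO (log2 change -0.39, SE 0.10, limma adjusted p = 0.0117). Zfp598 (chr17:24669752-24682015) is a ubiquitin ligase that senses collided ribosomes, and it had 221, 204 and 212 RPM in WT and 138, 159 and 169 RPM in KO (log2 change -0.45, SE 0.11, limma adjusted p = 0.0098). Both genes were separated between the groups, at 76.1% and 73.3% of the WT mean. Among the members, 13 overlap another annotated gene, on the same strand in Zfpm1 (Gm20388), Zfp809, Zfp949, Zfp984 and Zbtb20 and on the other strand alone in Zfp943, Zfp131, Zfp395, Zfp950, Zfp697, Zfp213, Zkscan7 and Zfp106. Zfp760, Zfp951, Zfp229, Zfp938, Zfp758, Zfp467, Zfp598 and Zfp983 have no other annotated gene in the region counted and share under 10% of their 50-mers with other genes. Zfp983 is close to that limit at 9.83%, of which 3.25% lie in CAAA01141682.1, which overlaps its annotated gene outside that region. Of these 8 members, 6 were higher and 2 lower.

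Zfp131 (chr13:119765187-119790889), a BTB zinc finger factor, went from 71.1, 64.9 and 63.6 RPM to 39.4, 50.0 and 55.1 RPM (log2 change -0.48, SE 0.15, limma adjusted p = 0.0182), a call that was lost without WT library 1 (limma adjusted p = 0.061). Zfp106 (chr2:120506820-120563843), an RNA-binding protein, was at 541, 541 and 507 RPM in WT and at 303, 399 and 475 RPM in KO. The KO libraries differed widely, with a coefficient of variation of 22.1% against 3.75% in WT. The log2 change of Zfp106 was -0.46 (SE 0.17, limma adjusted p = 0.0361), and it was -0.28 without KO library 1 (limma adjusted p = 0.057). The call was also lost with any 1 WT library or KO library 2 left out (limma adjusted p from 0.065 to 0.088). A block for replicate number ended it too (limma adjusted p = 0.056). Of its 50-mers, 24.6% occur in Gm26899, which overlaps it on the other strand.

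Levels can be compared between genes only per length, here as mean RPM per kb of merged exons in WT. Zfpm1 was highest at 82.4, followed by Zfp598 at 54.5 and Zfp106 at 50.8. The lowest were Zfp229 at 0.430, Zfp697 at 0.444 and Zfp607b at 0.453. The median over the members was 4.33, below the 15.1 of the 1397 listed genes with an annotated exon length, and within the family it was 3.11 for KRAB members and 9.70 for the others. Across the 23 members, Spearman's rho of the log2 change with this WT level per kb was -0.69, and with exon length it was -0.02. These are descriptions: the WT values enter both the level and the change, and a gene with few reads could enter the table only with a large change.

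**Figure D4:**
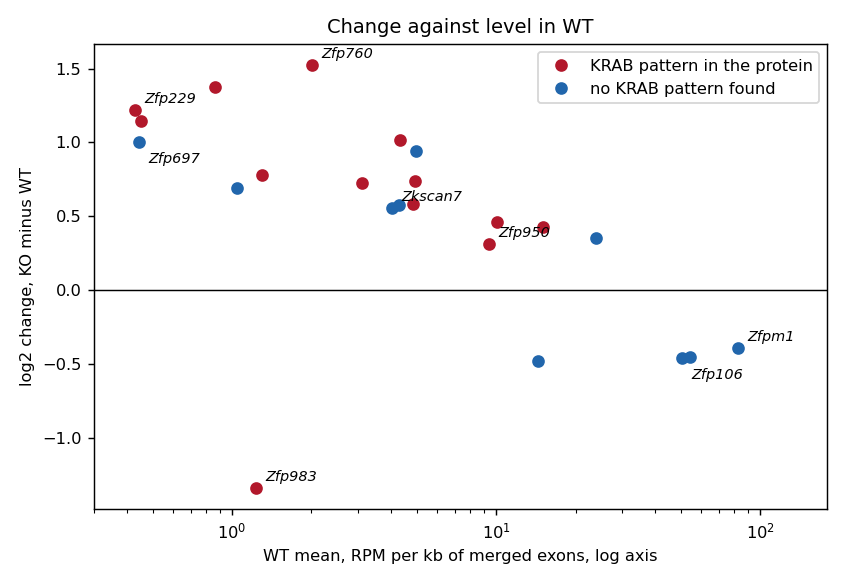
Log2 change (KO minus WT) of the 23 members against their WT mean in RPM per kb of merged exons (log axis), coloured by KRAB pattern. The largest rises sit at low levels, and 3 of the genes that fell, Zfpm1, Zfp598 and Zfp106, have the highest levels.

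By size, 6 members rose by at least 1 on the log2 scale, 26.1% of the family, where 19% of all listed genes did. One member, Zfp983, fell by that much, 4.35% of the family, against 8.1% of all. The median size of the change, regardless of direction, was 0.69 in the members and 0.64 in all genes. Rises made up 78.3% of the members and 52.5% of the table, a difference for which no test was made. The members had lower levels than the table (median of mean RPM 22.8 against 63.6), and rises were more frequent among listed genes of low level.

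A list of 50 symbols was drawn up for the KRAB silencing pathway, in which Fam208a and Tasor name the same gene, as do Lsh and Hells. Of the list, 6 were in the table, among them the deleted gene Smarcad1. Of all coding genes, 6.07% were in the table. Of the 6, 3 were higher and 3 lower, where 52.5% and 47.4% of all listed genes were. Atf7ip2, a relative of the Setdb1 partner Atf7ip, was at 5.52, 5.24 and 3.13 RPM in WT and 10.3, 10.8 and 11.4 RPM in KO (log2 change 1.25, SE 0.22, limma adjusted p = 0.0037). Trim24, a relative of Trim28, and Mbd1, which binds methylated DNA, both had a log2 change of 0.43 (limma adjusted p = 0.0145 and 0.0093). Smarcad1, Kdm4b, a demethylase of H3K9 (log2 change -0.44, limma adjusted p = 0.0182), and Gatad2a, a subunit of the NuRD complex (log2 change -0.42, limma adjusted p = 0.0136), were lower. The rest of the list was not analysed here.

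Other C2H2 factors, with names outside the rule and no KRAB pattern, were set beside the members. Of these, 5 were in the table: Ikzf2, Osr2, Patz1 and Egr1 were higher (log2 changes 1.90, 0.71, 0.49 and 0.46) and Prdm15 was lower (-0.50). Their median log2 change was 0.49, beside 0.58 in the family and 0.38 over all 1420 genes, of which 52.5% were higher. With 5 genes in the comparison, no difference between the classes was tested.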

How the data were processed

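RNA-seq of 3 WT and 3 KO organoid cultures was analysed from 1 table. The authors trimmed 50 bp paired-end reads with Trim Galore (0.4.2), mapped them to GRCm38 with HISAT2 (2.0.3), used SeqMonk to count uniquely mapped reads in the exons of each gene's merged transcripts, and deposited RPM values per library for 1420 genes that passed DESeq2. The table's FDR column holds the authors' own test and was not used.

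RPM values were tested as log2(RPM + 0.1) in limma (3.58.1, R 4.3.3), two-sided, without covariates, and p-values were adjusted by Benjamini-Hochberg across the whole table (threshold 0.05). Since the genes had been selected on these libraries, passing the test is not independent evidence. Depth was read from the smallest step in each library, and values were whole multiples of it (tolerance 0.05 of a step). The fitting code was run on simulated data in which most genes were unchanged. Nearly all listed genes were called here, so that run cannot vouch for the adjusted p-values. The members, gene lists and tests were chosen with earlier results of these data known. Genes were named if they had a neighbour in the family within 1 Mb, were among the 8 largest rises or falls with separate groups, belonged to the listed pathway, or stood at the ends of the order of levels; the other members were added afterwards.

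Exons, proteins and 50-mers came from GENCODE M21 (GRCm38) and matched 1397 genes by symbol and position. Alternatives were a replicate block, a pseudocount of 1, a filter on low values, centring, an intensity trend, removal of an exon-length trend (loess, span 0.75), each library left out, and stricter thresholds.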

Additional observations from a re-analysis of the deposited data

How the results depend on the processing

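All 23 members kept their direction in every alternative fit that included them, and 15 kept their call in each. In all members but Zkscan7 the groups were separate, so leaving out a library could not reverse the direction. Of 266 refitted values of single members, 24 lost the call, 18 of them with 1 library left out. With each library left out in turn, 14 to 18 members were higher and 3 to 5 lower at an adjusted p under 0.05, and the median log2 change of the members ran from 0.57 to 0.66; the lowest count of falls, 3, came without WT library 1 and the median without KO library 1 was 0.66. A filter that dropped the lowest 25% of genes by mean RPM left 13 members, 9 higher and 4 lower, with a median of 0.43 (-0.35 over all genes left), since 10 members are expressed below it. Centring on the median lowered the members' median to 0.49, a shift of -0.09 for all genes. An adjusted p under 0.01 left 11 higher and 2 lower, and a log2 change of at least 1 left 6 and 1. Leaving out members that overlap another gene or share at least 10% of their 50-mers, an alternative chosen after seeing the data, left 6 higher and 2 lower.

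Removing the exon-length trend shifted the median gene by -0.14 on the log2 scale, lowered the share of higher calls over the table from 52.6% to 43.8%, and left 15 members higher and 5 lower; Zfp758, Zfp809 and Zfp984 lost the call. The cause was not tested. With the replicate block, 17 members were higher and 4 lower, and Zfp106 and Zkscan7 lost the call; of all listed genes, 1351 were called instead of 1419. Deviations of libraries with the same number correlated by -0.08, 0.09 and 0.06. The libraries numbered 2 and 3 correlated best with their own number and those numbered 1 did not, so pairing was not shown and the fit without the block was kept. Depth limits the low members, of which Zfp983 has the fewest reads in a library, 25.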
